A study of Mus musculus with 11 samples.

Results

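The HA-H3.3 experiment comprised 2 of the 11 libraries of the series: 1 chromatin immunoprecipitation library from embryonic stem (ES) cells harvested 3 h after doxycycline (Dox) addition and 1 from cells harvested at 6 h. Both were taken by their labels, and they were compared with each other at the same read depth. The study placed HA-tagged histone variants under an inducible promoter so that newly made histone could be followed as it entered chromatin. The cells were KH2 mouse ES cells of a mixed 129 and C57bl/6 background. They carried the M2rtTA transactivator at the ROSA26 locus and an HA-H3.3 transgene under the tetracycline operator downstream of Col1a1, and they were grown with LIF, depleted of feeder fibroblasts and induced with Dox at 2 µg/mL. The labels do not give the number of HA-H3.3 clones, and the tagged protein was made from a promoter other than those of the endogenous H3.3 genes. HA-tagged chromatin was recovered with an anti-HA antibody (Abcam ab9110). The 3 other libraries set beside it came from KH2 cells with an HA-MacroH2A2 transgene (HA-Macro), treated the same way for 0 (no Dox), 3 and 6 h. The remaining library, also from ES cells, was recovered with an antibody to MacroH2A2, and its title names 2 replicates. No HA-H3.3 library from cells without Dox was used here, so the HA-Macro no-Dox library gives the only anti-HA background. The study reports a trace of promoter signal in it, which it ascribes to probable leaky HA-MacroH2A2 expression or alternatively to open chromatin. Its promoter reads may therefore not all be background for HA-H3.3, which was not tested.

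Histone H3.3 is a replacement variant of H3. The canonical H3 proteins are made in S phase and are assembled behind the replication fork, whereas H3.3 is made throughout the cell cycle and is deposited independently of replication, by the HIRA complex over genes and their regulatory elements and by DAXX with ATRX in heterochromatin. In ES cells H3.3 is known for fast exchange at active promoters and enhancers. Tagged H3.3 that enters chromatin after induction therefore marks where new H3.3 was deposited during the labelling time. The cells were cycling asynchronously, so exchange was not separated from deposition during S phase.

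The 3 h library held 6488112 mapped intervals and the 6 h library 10722793, of which 6317120 and 10473824 had their midpoints on the 19 autosomes. Each midpoint is called a read here. The 6 h library was thinned at random to 6317120 autosomal reads, so that equal counts mean equal shares of each library, and every ratio is given as log2 of 6 h over 3 h at that depth. Intervals in brackets are exact 95% Clopper-Pearson limits of the ratio. They cover counting error only, PCR copies are not independent molecules, and with 1 library per time point no spread between cultures and no p-value can be given. The deposited intervals of both HA-H3.3 libraries were 400 bp long and those of the HA-Macro libraries 150 bp, so midpoints of the 2 experiments are blurred over different lengths.

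A gain at some positions is a loss at others on this scale, since each library sums to the same total. The median 100 kb tile held 0.844 times as many reads at 6 h as at 3 h (log2 of −0.25), and 1 kb windows over 50 kb from any gene held 0.779 times as many (log2 of −0.36). A ratio between −0.25 and 0 would turn positive if the libraries were scaled to the median tile, and a ratio between −0.36 and 0 if they were scaled to the gene-poor windows. The directions below hold for equal library totals and are shares of reads. Whether the 2 libraries hold unequal parts of nonspecific background was not tested, as no HA-H3.3 library without Dox was used.

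At 6 h a larger share of HA-H3.3 reads lay near promoters and a smaller share in gene-poor sequence than at 3 h. Positions within 1 kb of a transcription start site (TSS) made up 2.62% of the autosomal bases and held 339757 reads at 3 h and 491555 at 6 h, that is 2.10 and then 3.04 times the genome mean. The log2 ratio was 0.54 (0.53 to 0.54). The no-Dox library was at 1.17 times the mean over the same bases. At the other extreme, intergenic sequence over 50 kb from a gene held 1244672 reads at 3 h and 970379 at 6 h, so its level went from 0.761 to 0.594 times the mean, a ratio of −0.36 (−0.36 to −0.35). Between these extremes lay exons over 1 kb from a TSS at 0.18, intergenic sequence within 10 kb of a gene at 0.13, introns at 0.048 and intergenic sequence 10 to 50 kb from a gene at −0.12. The 2 compartments farthest from genes were those below 0, but the one at 10 to 50 kb turns positive when scaled to the median tile or to gene-poor windows. The one over 50 kb becomes level when scaled to gene-poor windows, by construction.

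The HA-Macro libraries of the same 2 time points had the opposite sign in 5 of the 6 compartments. Their log2 ratio was −0.20 within 1 kb of a TSS, −0.33 in distant exons, −0.16 in introns and 0.12 over 50 kb from a gene. Whether the experiments differ beyond the spread of cultures could not be tested with 1 library at each time.

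With distance from the nearest TSS the HA-H3.3 ratio declined without a break. Windows of 1 kb centred within 0.5 kb of a TSS held 192074 reads at 3 h and 275176 at 6 h (0.52). The ratio was 0.25 at 1.5 to 2.5 kb, 0.14 at 5 to 10 kb, −0.03 at 20 to 50 kb and −0.34 at 100 to 500 kb. In the 47248 windows over 500 kb from any TSS, 86777 reads at 3 h stood against 63517 at 6 h, a ratio of −0.45 (−0.46 to −0.44). Sequence composition shifted along the same axis, from a median GC content of 48.8% in the nearest windows to 37.2% in the farthest.

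GC content moved with the ratio also within 2 classes of distance. The class over 10 kb is wide, and in it the median GC went from 42.9% at 10 to 20 kb to 37.2% over 500 kb. GC and distance were therefore not separated there. Among windows over 10 kb from a TSS the ratio was −0.41 at 30 to 32% GC, −0.03 at 44 to 46% and 0.25 at 58 to 60%. In windows at a TSS it was −0.41, 0.32 and 0.65 for the same bins. The 2 kinds of window were thus alike at low GC and separated at middle and high GC. When each read count was divided by the ratio of distant windows of equal GC, the promoter ratio of 0.59 described below became 0.38. GC was that of the 1 kb window at the promoter centre, and all windows of at least 60% GC shared 1 factor. A difference in the amplification of GC-rich fragments and the position of H3.3 cannot be told apart with 1 library per time.

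**Figure D1:**
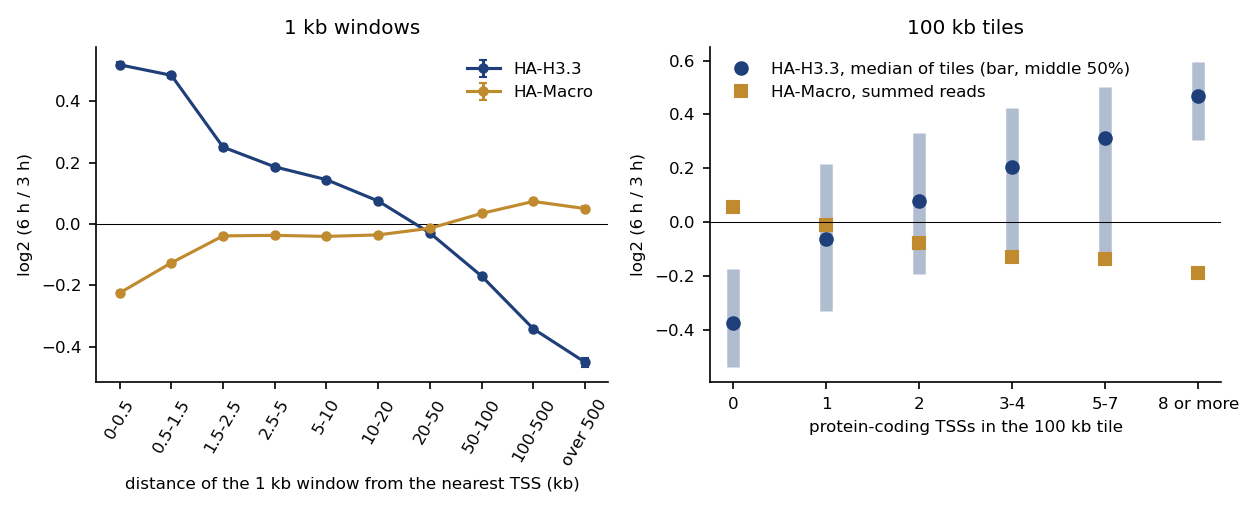
Log2 ratio of 6 h over 3 h against the distance of 1 kb windows from the nearest TSS (left, kb, with 95% counting intervals) and in 100 kb tiles by their number of protein-coding TSSs (right, points are tile medians for HA-H3.3 with bars over the interquartile range of tiles, squares are summed reads for HA-Macro). HA-H3.3 goes from 0.52 beside a TSS to −0.45 over 500 kb away and from a median of −0.37 in tiles without a protein-coding TSS to 0.47 in tiles with 8 or more.

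The range of read levels was also wider at 6 h. Over 2369133 windows of 1 kb, the mean was 2.61 reads at 3 h and 2.60 at 6 h, while the variance divided by the mean went from 2.33 to 5.41. The 99th percentile went from 11 to 19 reads, and the 1% of windows with the most reads held 5.94% of the reads at 3 h and 10.5% at 6 h. At the low end, the windows without a read increased from 391007 to 535912, or from 16.5% to 22.6%. At equal depth the 6 h library was therefore both more concentrated and more depleted.

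Of the 56759 windows with at least 20 reads over both libraries, 25170 (44.3%) were at least 2-fold higher at 6 h and 428 (0.754%) at least 2-fold lower. A minimum on pooled reads favours the library with the wider range, so the balance of these counts is not a measure of direction. The SD of the log2 ratio in these windows was 0.69, against 0.58 from counting alone. The 25170 windows went from a mean of 1.33 to 3.62 p.p.m. and the 428 from 2.60 to 1.07. No-Dox background was 0.471 p.p.m. in the first set and 0.763 in the second.

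Tiles of 100 kb showed the shift in read shares at the scale of gene neighbourhoods. Over 23642 tiles the reads of the 2 libraries had a Pearson r of 0.936 and a Spearman rho of 0.93, and the coefficient of variation of the tile level went from 41.6% to 72.7%. The middle 90% of tiles held 147 to 478 reads at 3 h and 103 to 665 at 6 h. The SD of the log2 ratio was 0.39, whereas counting gives 0.16. Past 1.5-fold, 996 tiles (4.21%) were higher and 3183 (13.5%) lower at 6 h. This balance depends on the scaling, since the median tile lay at −0.25. Scaled to the median tile 12.5% were higher and 1.71% lower, and scaled to gene-poor windows 17.9% and 0.584%.

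The 13444 tiles without a protein-coding TSS held on average 221 reads at 3 h and 188 at 6 h, a ratio of summed reads of −0.24 and a median tile ratio of −0.37, and 13.4% of them had any excess of reads at 6 h, whatever its size. Tiles with 1, 2, 3 to 4 and 5 to 7 protein-coding TSSs had ratios of summed reads of 0.09, 0.19, 0.29 and 0.36 and median tile ratios of −0.06, 0.08, 0.20 and 0.31. The sum and the median thus differed in sign for tiles with 1 TSS. The 104 tiles with 8 or more went from 528 to 737 reads, a ratio of 0.48 (0.47 to 0.50) with a median of 0.47, and 89.4% of them had an excess at 6 h. The HA-Macro ratio over the same steps went from 0.06 to −0.19. The order was the same away from promoters: with the 5 kb on each side of every TSS left out, the HA-H3.3 ratios were −0.24, 0.03, 0.11, 0.21, 0.27 and 0.38.

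Across tiles, the log2 ratio of HA-H3.3 had a Pearson r of 0.419 with the number of protein-coding TSSs, 0.507 with GC content, 0.426 with no-Dox reads and 0.784 with the HA-Macro 3 h level, over 23637 to 23642 tiles. These are descriptions over tiles that share the same libraries, depth and base composition. The level at 3 h had an r of 0.911 with the MacroH2A2 antibody and 0.699 with HA-Macro 3 h, but the Spearman values were close, at 0.856 and 0.849. The level at 6 h had r of 0.804 and 0.827 with the same 2 libraries. The antibody library shares the 400 bp interval length with HA-H3.3, and its part in these values was not tested.

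The tiles with the most extreme ratios held almost no reads and named nothing that can be interpreted. The 3 highest were chr7:9200001-9300000, with the vomeronasal receptor Vmn2r40 (1 read at 3 h and 4 at 6 h), chr13:66200001-66300000, with Gm16512 (7 and 22 reads), and chr2:100300001-100400000, with Gm13812 (1 and 3 reads). The 3 lowest were all on chromosome 7, at 33400001-33500000 (9 and 1 reads), 113200001-113300000 (7 and 1 reads) and 22200001-22300000 (5 and 1 reads). At equal depth the no-Dox library held over 100 reads in all of them. In all, 241 tiles had under 20 reads in both HA-H3.3 libraries, and 221 of these had at least 100 no-Dox reads. In these 241 tiles the median was 192 no-Dox reads against 2 in HA-H3.3 at 3 h and 2.28 in the MacroH2A2 antibody library, so libraries of 400 bp intervals were almost empty there where the no-Dox library was not. Repeated intervals made up 0.573% of the HA-H3.3 3 h library and 5.79% of the no-Dox library, and whether reads with several matches were handled alike in both was not tested.

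Promoters were taken as the 600 bp on each side of the TSS of a protein-coding gene. Where promoters overlapped, a shared read was counted for each. Over 20792 promoters the reads went from 199894 at 3 h to 301329 at 6 h, a ratio of 0.59 (0.58 to 0.60). On single autosomes it lay between 0.55 and 0.62, with 19 of 19 above 0. The median promoter held 8 reads at 3 h and 12 at 6 h. Reads were more numerous at 6 h at 13244 promoters (63.7%) and fewer at 5341 (25.7%). With at least 20 reads over both libraries, 10708 promoters could be read singly, of which 6320 (59%) were at least 1.5-fold higher and 257 (2.4%) at least 1.5-fold lower, with the same favour of the pooled minimum towards 6 h. Most promoters had more reads at 6 h, with few reads behind each gene.

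Of the 5 sequences below, the last is a distal window outside these sums and the others are promoters within them. The sequences are the 300 bases before the TSS on the gene's strand, or the middle of a distal window on the plus strand, in build mm9, with each CpG in capitals (both strands are covered, since CG is its own complement). Pip4k2c had the highest ratio among promoters with at least 40 reads over both libraries, but only 4 of its reads were at 3 h and 38 at 6 h. Hira encodes the H3.3 chaperone and Pou5f1 stands for the pluripotency genes. Olfr94 is an olfactory receptor with few CpGs, and the last is a CpG-rich window of a distal locus.
Pip4k2c (chr10:126648679-126648978, minus strand): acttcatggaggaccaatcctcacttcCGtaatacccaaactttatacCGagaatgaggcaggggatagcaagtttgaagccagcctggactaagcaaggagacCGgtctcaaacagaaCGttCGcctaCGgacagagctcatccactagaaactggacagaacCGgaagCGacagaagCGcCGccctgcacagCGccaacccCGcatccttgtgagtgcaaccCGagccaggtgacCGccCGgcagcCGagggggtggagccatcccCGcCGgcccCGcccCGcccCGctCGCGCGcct
Hira (chr16:18876830-18877129, plus strand): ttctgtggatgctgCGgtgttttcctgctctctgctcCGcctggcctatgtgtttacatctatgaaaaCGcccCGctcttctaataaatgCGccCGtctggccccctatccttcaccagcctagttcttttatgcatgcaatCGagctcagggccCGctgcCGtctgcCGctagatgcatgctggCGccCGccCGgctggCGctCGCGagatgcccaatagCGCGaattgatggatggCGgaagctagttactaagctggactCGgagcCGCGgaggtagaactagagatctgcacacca
Pou5f1 (chr17:35642682-35642981, plus strand): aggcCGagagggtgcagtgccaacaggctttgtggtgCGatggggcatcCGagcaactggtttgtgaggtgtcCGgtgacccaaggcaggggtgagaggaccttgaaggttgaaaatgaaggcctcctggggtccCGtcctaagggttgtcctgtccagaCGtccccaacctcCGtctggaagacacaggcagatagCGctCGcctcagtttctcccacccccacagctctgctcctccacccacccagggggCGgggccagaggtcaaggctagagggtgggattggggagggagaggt
Olfr94 (chr17:37334957-37335256, minus strand): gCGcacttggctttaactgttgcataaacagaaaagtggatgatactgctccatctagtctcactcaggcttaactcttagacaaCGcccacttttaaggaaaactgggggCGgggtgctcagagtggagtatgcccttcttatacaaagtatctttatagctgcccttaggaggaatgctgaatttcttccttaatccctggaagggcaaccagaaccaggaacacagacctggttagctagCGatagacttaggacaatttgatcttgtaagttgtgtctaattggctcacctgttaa
Distal window in Phyhipl (chr10:70062351-70062650, plus strand): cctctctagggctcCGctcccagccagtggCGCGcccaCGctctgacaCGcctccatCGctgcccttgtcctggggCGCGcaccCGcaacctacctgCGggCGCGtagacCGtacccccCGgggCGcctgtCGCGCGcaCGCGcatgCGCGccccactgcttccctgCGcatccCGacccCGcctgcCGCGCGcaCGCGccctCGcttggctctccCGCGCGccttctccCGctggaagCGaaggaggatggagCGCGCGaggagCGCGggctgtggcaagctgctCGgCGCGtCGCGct

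Counted in these stretches of 300 bases, CpGs numbered 24 at Pip4k2c, 22 at Hira, 10 at Pou5f1, 4 at Olfr94 and 46 in the Phyhipl window. Over all 20792 promoters 93.9% of such stretches held a CpG, with a median of 10. Pip4k2c and Hira were thus above the median of all promoters, Pou5f1 at it and Olfr94 below it.

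Grouped by CpG content, promoters differed in their summed ratio. The observed over expected CpG ratio of the promoter was cut into 5 equal classes. In the lowest class, 4159 promoters went from 12872 to 12200 reads, a ratio of −0.08 (−0.11 to −0.04) that would be positive under either of the other scalings. The second class was at 0.43 (0.40 to 0.45), and the 3 above it were at 0.67, 0.66 and 0.64. In the highest class 64130 reads at 3 h stood against 100010 at 6 h. The largest step was between the lowest class and the next, and the 3 highest classes were close to each other. At least 20 reads were held by 153 promoters of the lowest class and 3721 of the highest, and 66.0% and 55.7% of them were at least 1.5-fold higher. The pooled minimum favours promoters that are high in 1 library, and few of the lowest class pass it. These 2 shares therefore give no direction by CpG content. HA-Macro ran from 0.11 in the lowest class to −0.55 in the highest.

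Ranking the same promoters by the HA-Macro 3 h level gave HA-H3.3 ratios of 0.02, 0.45, 0.64, 0.67 and 0.63 from the lowest to the highest class. Ranked by the MacroH2A2 antibody, they were 0.53, 0.61, 0.67, 0.61 and 0.53, so that ranking did not separate a class without gain.

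Around the TSS the level peaked just downstream, while the ratio peaked upstream. In bins of 200 bp the 3 h level was highest at the bin centred 300 bp downstream of the TSS, with 9.76 reads per kb per promoter, where 6 h reached 14.1 and the no-Dox library, at equal depth, 3.76. The log2 ratio was highest at 500 bp upstream, at 0.80 (0.77 to 0.82), and was 0.48 (0.46 to 0.50) at 100 bp downstream, with 0.60 at 900 bp downstream and 0.27 and 0.26 at the upstream and downstream ends, 3900 bp away. The 6 h profile had gained a shoulder upstream of the TSS. At the 500 bp upstream bin the level went from 6.15 to 10.7 reads per kb against 2.73 without Dox.

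**Figure D2:**
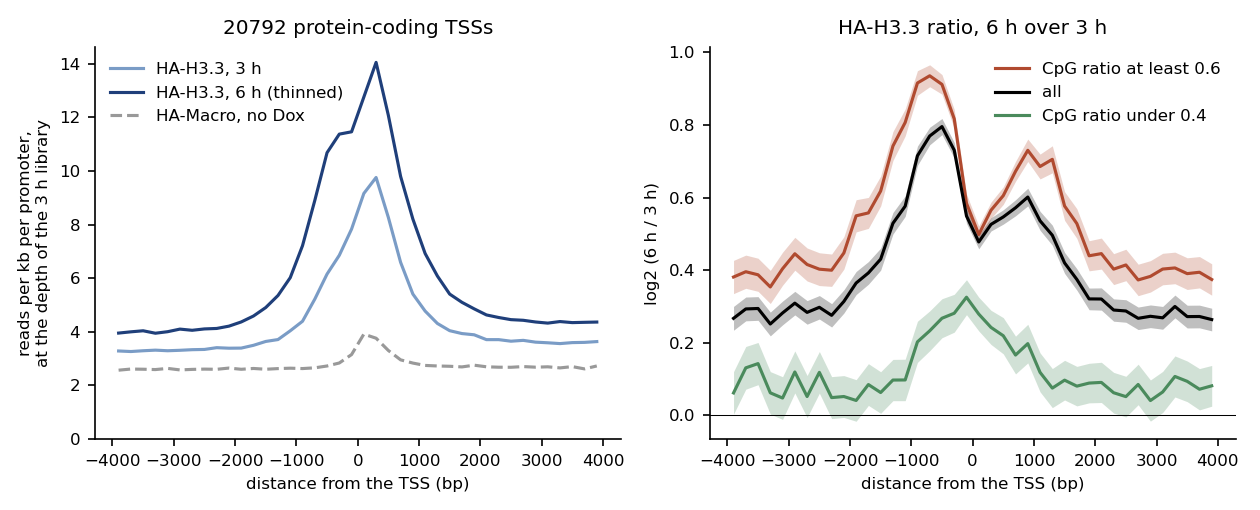
Reads per kb per promoter around 20792 protein-coding TSSs at equal depth (left) and the log2 ratio of 6 h over 3 h with 95% counting bands (right), both against distance from the TSS in bp, for all promoters and for those with an observed over expected CpG ratio of at least 0.6 or under 0.4. The ratio of all promoters peaks at 0.80 in the bin 500 bp upstream and dips to 0.48 at 100 bp downstream, and the CpG-poor set lies below the CpG-rich set throughout.

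The upstream maximum was higher at CpG-rich promoters. For the 9244 with a CpG ratio of at least 0.6, the log2 ratio was 0.94 (0.91 to 0.97) at 700 bp upstream and 0.50 (0.47 to 0.52) at 100 bp downstream. The 8345 promoters with a CpG ratio under 0.4 had a single broad maximum of 0.33 (0.28 to 0.37) at 100 bp upstream and 0.06 at 3900 bp upstream.

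The flank from 1000 to 400 bp upstream and the first 600 bp downstream were then summed, windows that were set after the profile had been seen. Upstream reads went from 65574 to 111425, a ratio of 0.76 (0.75 to 0.78). Downstream reads went from 113058 to 161688, a ratio of 0.52 (0.51 to 0.53). The upstream flank held 0.58 times as many reads as the downstream flank at 3 h and 0.689 times as many at 6 h. The gap was of like size at the 16583 promoters with no other annotated TSS within 2 kb, where the ratios were 0.75 upstream and 0.48 downstream. Among those, CpG-rich promoters stood at 0.96 and 0.52, and CpG-poor ones at 0.20 and 0.22. The 2 flanks lie at unequal distances from the TSS, and the downstream one holds the dip. Mirrored bins of 500, 700 and 900 bp were read with promoters that have a neighbour included. There CpG-rich promoters had 0.91, 0.94 and 0.92 upstream and 0.61, 0.67 and 0.73 downstream. CpG-poor ones had 0.27, 0.23 and 0.20 upstream and 0.22, 0.17 and 0.20 downstream. HA-Macro leaned the same way, with −0.13 upstream and −0.39 downstream over all promoters and −0.19 and −0.55 at the CpG-rich ones without a neighbour.

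The list of the H3.3 pathway held the 2 H3.3 genes and their chaperones and remodellers, and its 11 promoters went from 207 to 369 reads, a ratio of 0.83 (0.58 to 1.09), whose limits include the 0.59 of all promoters. Of these, 9 had more reads at 6 h, beside 63.7% of all promoters, while Ubn2 had fewer and H3f3b had equal counts. At full depth, however, the log2 ratios of Ubn2 and H3f3b were 0.048 and 0.55. Of the 9 with at least 20 reads, 8 were at least 1.5-fold higher and 0 lower, beside 59% and 2.4% of all promoters. H3f3a, which encodes H3.3, had 24 reads at 3 h and 45 at 6 h (0.91, 0.16 to 1.69), and H3f3b, which encodes the same protein, had 7 at both times.

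Hira, the histone chaperone at the centre of the HIRA complex, had 27 reads at 3 h and 65 at 6 h, a ratio of 1.27 (0.60 to 1.97), against 6.80 no-Dox reads at equal depth. Ubn1, a subunit that binds H3.3, had 17 and 27 reads, and Ubn2, its paralogue, 28 and 26. Cabin1, another subunit, had 11 and 20. The interval of Hira lay above 0 and those of Ubn1, Ubn2 and Cabin1 included 0, but all 4 intervals overlap and at full depth that of Ubn1 excluded 0 (0.039 to 1.74).

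Asf1a and Asf1b, which hand H3 and H4 to the assembling chaperones, had high ratios in the thinned library. Asf1a went from 13 to 43 reads, at 1.73 (0.80 to 2.75), and Asf1b from 14 to 36, at 1.36 (0.44 to 2.37). At full depth Asf1b was lower, at 1.08. Daxx, the chaperone that works with ATRX, had 32 and 48 reads (0.58, −0.09 to 1.28). Chd1, a remodeller that binds methylated H3K4, had 29 and 46 (0.67, −0.04 to 1.39). Chd2, a related remodeller, stayed at 5 and 6 reads, too few to place.

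Chaperones of replication-coupled assembly stood at a like ratio. Their 8 promoters went from 88 to 173 reads, a ratio of 0.98 (0.60 to 1.36), with 8 of 8 having more reads at 6 h, beside 63.7% of all promoters. At full depth 1 of these, the replicative helicase gene Mcm2 (7 and 8 reads), was at −0.077. Nap1l4, a nucleosome assembly protein, had 18 and 39 reads, and Rbbp4, a subunit of CAF-1, had 15 and 24. Replication-dependent histone genes, 67 promoters in clusters with near-identical members, went from 787 to 1446 reads at 0.88 (0.75 to 1.00). More reads at 6 h were found at 58 of the 67, beside 63.7% of all promoters. Only 14 of the 67 had no other TSS within 2 kb. Reads shared by close promoters count for each, so the 67 are not separate and the interval can be too narrow. Hist3h2a had 30 and 57 reads and the linker histone gene Hist1h1c 30 and 49.

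Promoters of pluripotency genes had more reads at 6 h in 28 of 29 cases, beside 63.7% of all promoters. Summed reads went from 355 to 630, a ratio of 0.83 (0.64 to 1.02), and 19 of the 26 with at least 20 reads (73.1%, beside 59% of all promoters) were at least 1.5-fold higher. Pou5f1, which encodes Oct4, had 16 and 39 reads (1.29, 0.41 to 2.22), and Sox2, its partner factor, 14 and 33 (1.24, 0.30 to 2.25). Nanog, a homeobox factor, had 11 and 20 (0.86, −0.27 to 2.07). The intervals of Pou5f1 and Sox2 lay above 0 and that of Nanog did not.

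The most reads in this list were at Trim28, the corepressor recruited by KRAB zinc finger proteins, with 28 at 3 h and 51 at 6 h (0.87, 0.17 to 1.58). Zfp42, the ES cell marker Rex1, went from 5 to 21 (2.07, 0.62 to 3.83) and Dppa2, a regulator of germline genes, from 7 to 22 (1.65, 0.37 to 3.12). Dppa3, known as Stella, had 2 and 15 reads, a ratio whose counting interval ran from 0.80 to 6.08. These 3 promoters were among those of the list with the fewest reads at 3 h.

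Tcl1, a coactivator of the kinase Akt, had 14 and 29 reads, and Lefty1, an antagonist of Nodal, 11 and 26. The RNA-binding genes Lin28a and Lin28b had 13 and 27, and 12 and 26. Smaller ratios were those of the T-box factor Tbx3 (20 and 31), the growth factor Fgf4 (17 and 25), the Polycomb cofactor Jarid2 (15 and 22), the Nodal coreceptor Tdgf1 (14 and 22) and the Krüppel-like factor Klf4 (15 and 23). Nodal (19 and 23) and Klf2 (18 and 20) differed little between the libraries.

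Among the less covered members, Prdm14 had 11 and 19 reads, Gdf3 11 and 17, Dppa4 13 and 17, Sall4 8 and 19, Lefty2 8 and 15, Mycn 8 and 13, Klf5 7 and 13 and Esrrb 9 and 11. Their single counting intervals all included 0. Utf1, a chromatin-associated ES cell factor, was the exception of the list with 23 and 18 reads (−0.35, −1.33 to 0.60), and −0.73 (−1.63 to 0.17) at full depth.

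**Figure D3:**
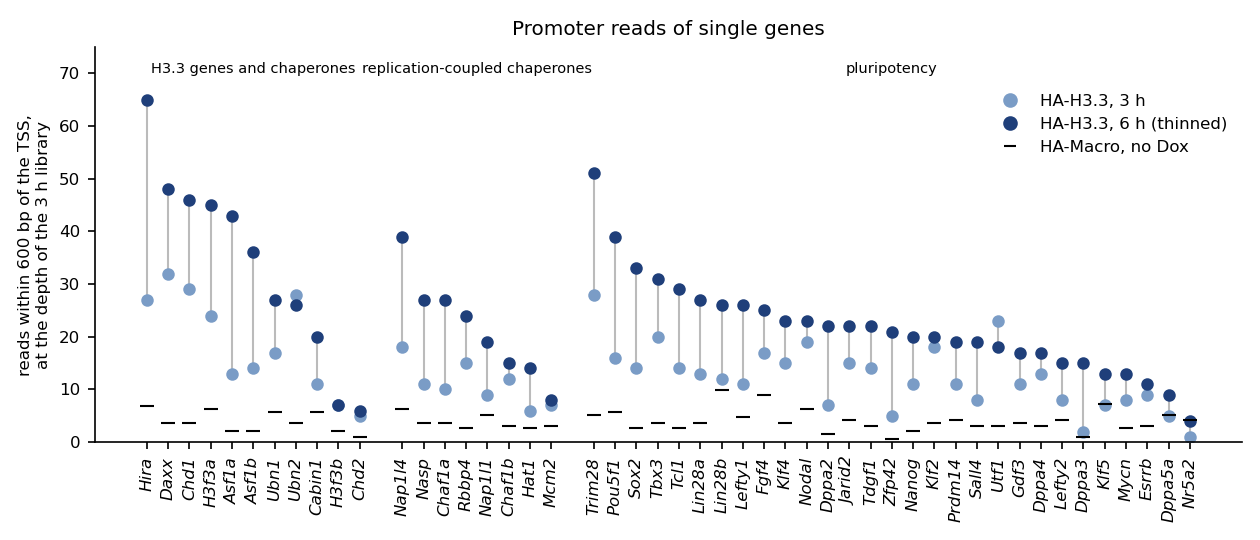
HA-H3.3 reads within 600 bp of the TSS at 3 h and 6 h, at the depth of the 3 h library, for each gene of 3 lists (axis from 0), with the HA-Macro no-Dox reads at the same depth as a short bar. Hira goes from 27 to 65 and Pou5f1 from 16 to 39, and Utf1 and Ubn2 have fewer reads at 6 h in this thinning (at full depth Utf1 is at −0.73, Ubn2 at 0.048 and Mcm2 at −0.077).

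Abundantly transcribed gene families had summed ratios near that of all promoters. The 75 promoters of cytosolic ribosomal proteins went from 735 to 1079 reads, at 0.55 (0.42 to 0.69), the 40 of the proteasome from 443 to 689, at 0.64 (0.46 to 0.81), and the 16 housekeeping promoters from 246 to 354, at 0.53 (0.29 to 0.77). Only 5 of the 15 covered housekeeping promoters (33.3%, beside 59% of all) passed 1.5-fold. Their median log2 ratio was 0.25, beside 0.65 over all, both computed with 1 read added to each count. Upstream of ribosomal protein genes, 294 reads at 3 h stood against 581 at 6 h (0.98, 0.78 to 1.19), whereas downstream 382 stood against 403 (0.08, −0.13 to 0.28). Their balance turned from 0.77 upstream reads per downstream read at 3 h to 1.44 at 6 h.

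Proteasome genes were at 1.12 (0.80 to 1.44) upstream and 0.42 (0.18 to 0.66) downstream. Housekeeping genes were at 0.78 (0.41 to 1.16) and 0.27 (−0.07 to 0.61), limits that overlap each other and include the values of all promoters. For the 39 ribosomal promoters with no other TSS within 2 kb it was 0.90 upstream and −0.01 (−0.29 to 0.28) downstream, a downstream value that turns positive with the other scalings. HA-Macro ratios at the ribosomal list were −0.59 upstream and −1.04 downstream. Ribosomal protein genes have many processed copies in the genome, so part of their reads is uncertain.

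Single members of these lists had wide intervals. Rps10, of the small ribosomal subunit, had 28 and 46 reads. Psmb9, an immunoproteasome subunit, had 21 and 35, and Psma7, a core proteasome subunit, 18 and 37. Aldoa, a glycolytic enzyme, had 18 and 45 (1.32, 0.50 to 2.20) and Hspa8, the constitutive Hsc70 chaperone, 19 and 35. Gapdh, named after its values were seen, had 22 and 19 (−0.21, −1.18 to 0.74), a direction that turns with the other scalings.

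Immediate early genes, which respond to growth signals, went from 355 to 555 reads over 20 promoters, at 0.64 (0.45 to 0.84). Of these, 19 had more reads at 6 h, and 55.6% of the covered ones were at least 1.5-fold higher, beside 63.7% and 59% of all promoters. Zfp36, which encodes an mRNA decay factor, had 31 and 64 reads (1.05, 0.41 to 1.71), and Ctgf, a matrix protein gene, 24 and 51. The Zfp list of 322 zinc finger genes went from 3536 to 5871, at 0.73 (0.67 to 0.79). More reads at 6 h were found at 249 of its members, beside 63.7% of all promoters. Zfp341 had 47 and 75 reads and Zfp658 36 and 71.

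Developmental genes had summed ratios below that of all promoters. The 40 Hox promoters, which are silent in ES cells under Polycomb, had 272 and 315 reads, at 0.21 (−0.03 to 0.45), and 25 of the 40 had more reads at 6 h and 14 fewer, beside 63.7% and 25.7% of all promoters. Hoxd13, a posterior Hox gene, had 15 and 12 reads. Outside the Hox clusters, 55 developmental transcription factors went from 511 to 631, at 0.30 (0.13 to 0.48), with Foxd3 at 18 and 26 reads and Tbx20 at 17 and 27. The upper counting limits of both lists were under the ratio of all promoters.

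A list of fibroblast and mesenchymal genes was included because feeder fibroblasts can remain after depletion. Its 22 promoters had 182 and 218 reads, at 0.26 (−0.03 to 0.55), with 9 having more and 9 fewer at 6 h, beside 63.7% and 25.7% of all promoters. Of the 8 with at least 20 reads, 3 (37.5%) were at least 1.5-fold higher and 2 (25%) lower, beside 59% and 2.4% of all. Fn1, for fibronectin, had 26 and 47 reads and Vim, for vimentin, 13 and 26. A part of feeder chromatin in these libraries was not tested.

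Receptor families of sensory neurons, which ES cells do not use, had fewer reads at 6 h. The 1081 olfactory receptor promoters went from 3105 to 2196 reads, at −0.50 (−0.58 to −0.42). Reads were fewer at 6 h at 587 of them and more at 289, beside 25.7% and 63.7% of all promoters. Their ratio stayed below 0 under each scaling. The 315 vomeronasal receptor promoters went from 627 to 503, at −0.32 (−0.49 to −0.15), a direction that turns when the libraries are scaled to the gene-poor windows. Only 2 members of each family had 20 reads, among them Olfr94 (10 and 18) and Vmn1r90 (8 and 14), which the pooled minimum favours. Both families lie in clusters of near-identical copies, and their reads average 3.42 and 3.50 per promoter without Dox at equal depth, above the HA-H3.3 means at both times.

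**Figure D4:**
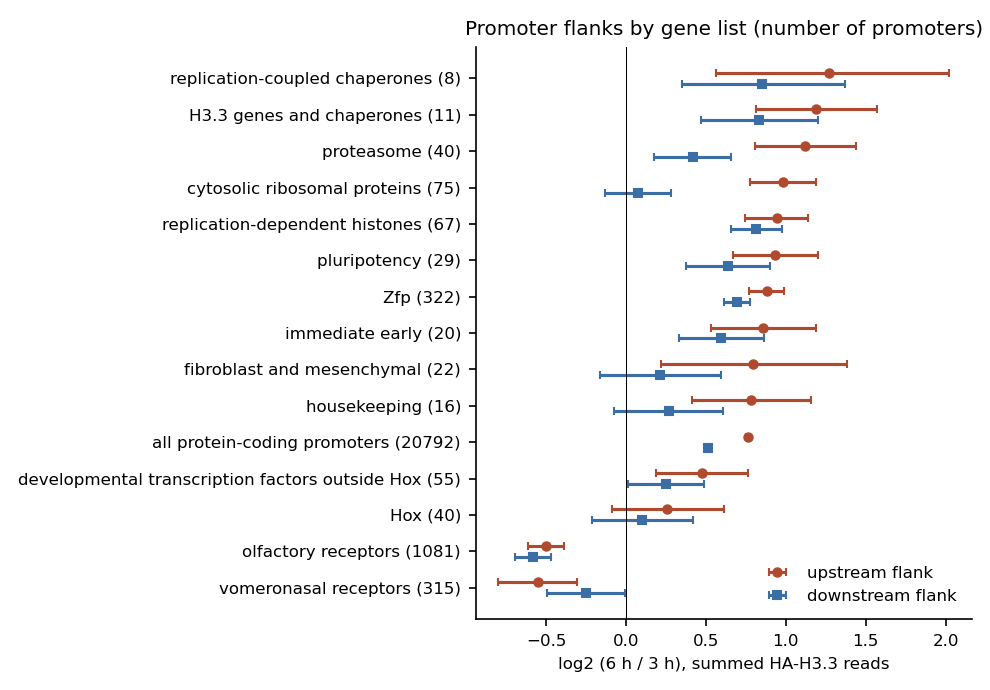
Log2 ratio of summed HA-H3.3 reads, 6 h over 3 h, in the upstream and downstream flanks of the promoters of each gene list, with 95% counting intervals and the number of promoters in brackets. Ribosomal protein genes stand at 0.98 upstream and 0.08 downstream, and olfactory receptors at −0.50 and −0.58.

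Single promoters with at least 40 reads, 4177 in number, gave the extremes. They were ranked by the ratio itself and are a description. Pip4k2c, a lipid kinase gene at chr10:126634123-126648678, had 4 reads at 3 h and 38 at 6 h (3.25, 1.77 to 5.20). Xrn2, the nuclear exonuclease of transcription termination, had 6 and 46 (2.94, 1.71 to 4.46), and Adam17, the sheddase of tumour necrosis factor, 14 and 74 (2.40, 1.57 to 3.34). Slc35e4, a solute carrier gene, had 6 and 35, Smarcd1, of the BAF remodelling complex, 6 and 34, Ctdsp2, a phosphatase gene, 6 and 34, Vezf1, a zinc finger factor gene, 8 and 45, and Gnpnat1, of hexosamine synthesis, 8 and 42. All 8 had at most 14 reads at 3 h.

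At the other end the ratios were nearer to 0. Celsr1, an atypical cadherin of planar cell polarity at chr15:85729188-85864207, had 30 reads at 3 h and 14 at 6 h (−1.10, −2.13 to −0.14). Gclm, of glutathione synthesis, had 26 and 15, Ube2q1, a ubiquitin-conjugating enzyme gene, 31 and 18, and Ak4, a mitochondrial adenylate kinase gene, 33 and 21. Hyi, a hydroxypyruvate isomerase gene, had 26 and 18, Tert, the telomerase catalytic subunit, 24 and 17, and the cytokine gene Mif 28 and 20. Of these 7 only the interval of Celsr1 excluded 0, and at full depth it did not (−0.78, −1.57 to 0.0076). At full depth Ube2q1 was at −0.22, Ak4 at −0.38, Tert at −0.14 and Mif at 0.11, so the lowest ratios depended on the thinning.

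The promoter with the most reads was that of Nap1l5, an imprinted gene of the nucleosome assembly family, with 59 at 3 h and 134 at 6 h (1.18, 0.73 to 1.65). Gjc1, a connexin gene, had 43 and 92, Dnajb14, a cochaperone gene, 53 and 84, and Map4k3, a kinase gene, 48 and 84. Chmp2a, of the ESCRT-III complex, had the highest count at 3 h among these 5 and few more at 6 h, with 69 and 80 reads (0.21, −0.27 to 0.70).

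Gene bodies, from 2 kb inside the TSS to 2 kb before the end, were nearly level in sum. Over 14673 genes longer than 6 kb the ratio was 0.047 (0.044 to 0.049). It depended on length: 0.23 at 6 to 10 kb, 0.24 at 10 to 20 kb, 0.20 at 20 to 50 kb, 0.09 at 100 to 200 kb, −0.11 at 200 to 500 kb and −0.25 over 500 kb, the last 2 turning positive when scaled to the gene-poor windows. Cut into 10 equal parts, bodies of 20 to 50 kb had a ratio that went from 0.31 in part 1 to 0.14 in part 8 and 0.16 in part 10. In bodies over 200 kb it went from −0.07 to −0.20 in part 3 and −0.17 at the end. The first part was thus above the rest at both lengths, with the whole line lower in long genes.

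Among 6657 bodies with at least 200 reads, 835 (12.5%) were at least 1.5-fold higher and 237 (3.56%) at least 1.5-fold lower. The highest, again chosen by the ratio, were Ldb1, a LIM-domain cofactor gene (61 and 161 reads, 1.40, 0.97 to 1.85), Fbxo22, an F-box gene (66 and 172), Pirt, a regulator of a sensory ion channel (62 and 160), Eif4e2, a cap-binding protein gene (113 and 288), and Csrp2, a LIM protein gene (85 and 214). Lowest were Col7a1, the collagen of anchoring fibrils (145 and 55 reads, −1.40, −1.87 to −0.94), Emr1, the macrophage marker F4/80 (181 and 81), Syt10, a synaptotagmin (156 and 72), Cacng5, a calcium channel subunit (142 and 66), and Nkd1, a Wnt antagonist (242 and 121). At equal depth the no-Dox library held 99.9, 259, 148, 105 and 212 reads in these bodies in that order, above the 6 h count in each and for Emr1 above the 3 h count.

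At transcription end sites (TESs) the ratio rose gradually from the upstream to the downstream side. Within 600 bp of 20702 TESs it was 0.34 (0.32 to 0.35). In bins it was 0.27 (0.24 to 0.29) at 500 bp upstream of the TES, 0.33 at 100 bp upstream and 0.40 (0.37 to 0.43) at 700 bp downstream. The level itself dipped at the TES, from 4.43 reads per kb at 500 bp upstream to 3.67 at 100 bp upstream at 3 h. With the 13353 TESs that have no TSS within 4 kb the ratio also rose, from 0.19 (0.15 to 0.22) at 500 bp upstream to 0.33 (0.29 to 0.37) at 700 bp downstream. HA-Macro was negative on both sides but also higher downstream, at −0.26 and −0.19 in the same bins over all TESs.

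**Figure D5:**
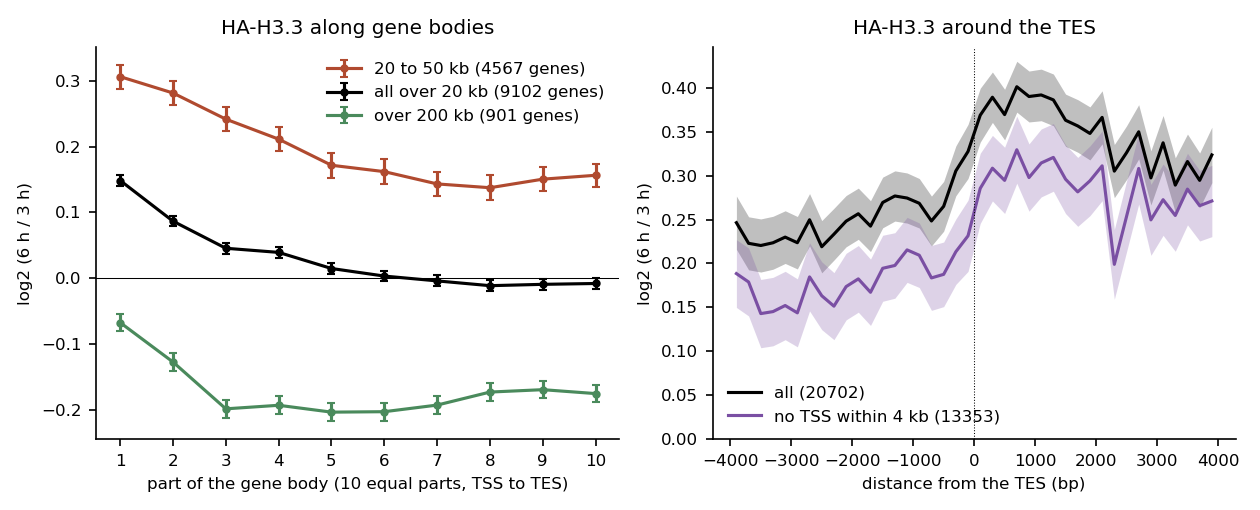
Log2 ratio of HA-H3.3 reads, 6 h over 3 h, by 10 equal parts of the gene body from TSS to TES for genes of 3 length classes (left) and by distance from the TES in bp (right), with 95% counting intervals. Bodies of 20 to 50 kb go from 0.31 to 0.16 and those over 200 kb from −0.07 to −0.17, and the ratio at the TES rises from 0.27 upstream to 0.40 downstream.

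Distal windows were 1 kb windows over 10 kb from the TSS of any annotated gene. With 1 TSS per gene, other start sites within a gene were not excluded. As a whole the distal windows lost share. All 1862264 of them had a ratio of −0.12, which turns positive with the other scalings. The 10000 with the most reads over both libraries went from 12.4 to 24.8 reads per window, a ratio of 1.00 (0.99 to 1.01). More reads at 6 h were found in 9466 of them, beside 585474 of all 1862264 distal windows. A ranking on pooled reads favours the library with the wider range, so it builds in part of this gain. No-Dox reads in the top 10000 windows were 1.35 times the mean of 2.44 per window over all distal windows at equal depth. Their median GC was 50.8%, against 41.2%, and 62.8% of them, against 39.2%, lay in a gene.

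How the windows were ranked set much of that value. Ranked by the 3 h library alone the top 10000 had a ratio of 0.39, and ranked by the 6 h library alone 1.20, each ranking favouring its own library. Ranked by HA-Macro at 3 h, which uses no HA-H3.3 read, they went from 79037 to 108378 reads, at 0.46 (0.44 to 0.47). Ranked by the MacroH2A2 antibody they had 74363 and 72596 reads, at −0.035 (−0.049 to −0.020). Of the 2 rankings that use no HA-H3.3 read, 1 thus gave a higher level at 6 h.

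Around the top windows chosen by both HA-H3.3 libraries, the ratio reached 0.92 in the neighbouring 1 kb window and was 0.57 at 10 kb away. Around windows ranked by HA-Macro at 3 h there was no such maximum, with 0.46 in the window, 0.52 beside it and 0.46 at 10 kb. The single windows with the most reads were of several kinds. The window at chr10:70062001-70063000, with its centre in an intron of Phyhipl, had 58 and 93 reads, 132 CpGs, a GC content of 73% and 4.18 no-Dox reads at equal depth. The window at chr5:33015001-33016000, 102 kb from the TSS of Yes1, a Src-family kinase gene, had 47 and 103 reads with 2 CpGs and 4.71 no-Dox reads. These 2 had no-Dox reads near the mean of the top windows.

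The 3 other windows held more no-Dox reads. HA-Macro at 3 h was also high in them, at 46.2, 49.2 and 66.5 reads at equal depth in the order below. It held 7.89 in the Phyhipl window and 12.8 in the window near Yes1. At chr11:53953001-53954000, 39.9 kb from the TSS of P4ha2, there were 61 and 104 reads against 26.7 without Dox. At chr7:89920001-89921000, with its centre in an intron of Eftud1, there were 67 and 96 against 23.5. At chr17:13499001-13500000, 47.9 kb from the TSS of Gm9880, there were 49 and 92 against 57.0, so that the no-Dox level exceeded the 3 h level of HA-H3.3.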

How the data were processed

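Per the labels and the study's methods, the authors mapped reads to mm9 with Bowtie 1.0 and extended each read. The methods give 1 random position for reads with several matches, but whether this holds for the HA-H3.3 files is not given in the sources used here. The deposited files list genomic intervals, 1 line per mapped read, with no strand and no count column. The methods give a length of 150 bp, but the HA-H3.3 intervals are 400 bp long. Depth was 6488112 and 10722793 intervals.

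From these, interval midpoints were counted on the 19 autosomes with Python 3.11.15, numpy 2.4.6, pandas 2.3.3, scipy 1.17.1 and pysam 0.24.0. The 6 h library was thinned without replacement (seed 1). Gene positions came from the GENCODE M1 annotation of mm9, with 1 TSS per gene. The 1% of 100 kb tiles with the most HA-Macro no-Dox reads (247 tiles) were left out of all of these counts. CpG ratios and sequences were read from the mm9 reference. For single features with 1 to 3 reads the ratio is the plain ratio of counts with its interval. The scripts were tested on simulated data with known folds.

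Groups came from the labels, with 1 library per time point, so no test across samples was made. Called features passed a fold of 2 (windows) or 1.5 (tiles, promoters, bodies). The 14 gene lists and the members were chosen with earlier results of these data known. Genes named were the 8 highest and 8 lowest promoters with at least 40 reads, the 5 promoters and 5 distal windows with the most reads, the H3.3 and pluripotency lists, the 2 members with the most reads of other lists, the 5 highest and 5 lowest bodies with at least 200 reads and the 3 highest and 3 lowest tiles, except a few genes that are not reported here. From the lists Atrx, Tfcp2l1, Nr0b1, Pgk1, Pkm and Sox1 had no protein-coding gene of that symbol on the autosomes, and Eef2 and Jund lay in tiles left out.

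Alternatives were full depth, distinct intervals only, another seed, other scalings, other read minimums, window sizes, added reads, the tiles kept, all annotated genes and other rankings of distal windows. Promoters without a neighbouring TSS, division by the ratio at equal GC and the other scalings of tiles were added after the data had been seen. The 5 libraries of fibroblasts and of 12 h induction were not used.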

Additional observations from a re-analysis of the deposited data

Results flagged for a closer look

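Between the 2 induction experiments in ES cells, 5 of 6 compartments of the genome had ratios of 6 h over 3 h with opposite signs. Within 1 kb of a TSS the log2 ratio was 0.54 for HA-H3.3 and −0.20 for HA-Macro. In exons over 1 kb from a TSS it was 0.18 and −0.33, and in introns 0.048 and −0.16. In intergenic sequence 10 to 50 kb from a gene it was −0.12 and 0.23, and over 50 kb from a gene −0.36 and 0.12. At 10 to 50 kb the HA-H3.3 ratio turns positive when scaled to the median tile or to gene-poor windows. Over 50 kb from a gene it becomes level when scaled to gene-poor windows, by construction. In the remaining compartment, within 10 kb of a gene, both were positive, at 0.13 and 0.19. Each experiment has 1 library per time, so this difference was not tested against the spread of cultures. Interval lengths (400 and 150 bp) and the share of repeated intervals at 6 h (0.694% in HA-H3.3 and 5.39% in HA-Macro) differ between the experiments, and their part in the difference was not tested.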

How the results depend on the processing

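No paired analysis was possible because each time point has 1 library. Scaling to the median tile and to gene-poor windows gave ratios of 0.84 and 0.95 at TSSs, 0.58 and 0.70 at TESs, 0.29 and 0.41 in bodies and 1.25 and 1.36 at distal windows, while promoters past the fold went to 73.4% and 79.6% higher and 0.785% and 0.486% lower. Dividing by the ratio at equal GC gave 0.38, 0.32, 0.13 and 0.87 in that order, and keeping the left-out tiles 0.56, 0.30, 0.050 and 0.95. The GC was that of the 1 kb window at the centre of each interval. The value for bodies therefore rests on the GC of 1 central kb per gene. At TSSs the ratio was 0.58 with distinct intervals, 0.61 with 1 kb on each side, 0.54 over all annotated genes and 0.57 without neighbouring TSSs. At TESs it was 0.30 over all annotated genes and 0.29 for genes whose own TSS had no other within 2 kb. At distal windows it was 0.99 with distinct intervals, 0.96 at full depth, 1.05 in the top 2000 and −0.035 when ranked by the MacroH2A2 antibody, the 1 reversed direction. The minimum of reads moved the share of lower features most: 9.55% and 0.0206% of windows and 6.84% and 0.0958% of promoters at minimums of 10 and 40 reads, with 1.52% of promoters at full depth. With 1 Mb tiles 0.379% were higher and 1.77% lower, and 100 kb tiles scaled to the median tile and to gene-poor windows gave 12.5% and 17.9% higher and 1.71% and 0.584% lower. For these quantities the other 34 values lay within counting error or within 1.5 times the share. With 5 added reads in place of 1, 6 lists rather than 7 had a median above that of all promoters, and 1 of the 7, the olfactory receptors, rests on 2 promoters. Depth limits single promoters, with a median of 8 and 12 reads, and with no second library at either time the differences between cultures are unknown.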
